A study of Mus musculus with 9 samples.

Results

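The genes described here are the 34 genes of the ATF4 program and of the cell's amino acid supply. They were chosen by name, with earlier results of these data known. They are the rows of the deposited expression table for integrated stress response, serine and one-carbon, proline synthesis and amino acid transport genes. All 34 were among the 25239 genes of the table, and 33 passed the filter for testing, a level averaging 1 FPKM or more across the 9 libraries. Fgf21 was the member that did not. Each of the 33 also had a mean of at least 1 FPKM with the day 1 libraries left out.

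The study sequenced polyadenylated RNA from primary mouse cortical astrocytes, taken from cortices of P4 (postnatal day 4) mice and grown in a rich medium with serum, glutamine and pyruvate. Cultures received 200 µM H2O2 for 3 h, were washed, and were harvested 24 h later (day 1, 3 libraries) or 72 h later (day 3, 3 libraries). The control group had 3 libraries without H2O2, and the labels give no harvest time for them. The labels name no strain or genotype and do not say whether each library had its own culture. The p-values therefore reflect how far the libraries of a group differ, and that difference may be technical.

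ATF4 is a transcription factor of the leucine zipper class. Its messenger RNA carries short upstream reading frames, and its translation rises when the initiation factor eIF2 is phosphorylated by one of its kinases, which sense scarce amino acids, misfolded protein in the endoplasmic reticulum, double-stranded RNA or a shortage of haem. ATF4 then binds with C/EBP partners at promoters of genes that import and make amino acids, charge transfer RNA and end the response again. In the brain, astrocytes are a main site of serine synthesis from glucose, and they carry transporters that move amino acids between blood, glia and neurons.

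Library totals, recovered from the deposited values, were 30278210 to 38414668 reads in control, 23032594 to 27850348 on day 1 and 30545004 to 36749577 on day 3. Every day 1 total was below the totals of the other groups. The tested member with the fewest reads in any library had 53. The 9 astrocyte markers were present in every group, with summed levels of 2772 to 2841 FPKM in control, 2049 to 2312 on day 1 and 2546 to 2581 on day 3, and Gfap alone at 1493 ± 33.7, 1235 ± 76.8 and 1333 ± 8.47 FPKM (mean ± SD, n = 3 here and below). Of the 9 astrocyte markers, 6 fell and 2 rose on day 1, and 3 were below control on day 3. Over all genes tested, 31.1% rose and 31.1% fell on day 1, and 7.37% rose and 6.45% fell on day 3. Markers of other cell types were present and moved on day 1. The 12 microglia markers summed to 267 to 293 FPKM in control, 104 to 113 on day 1 and 222 to 286 on day 3, and of the 11 tested 10 fell and 1 rose on day 1. The 12 oligodendrocyte lineage markers summed to 522 to 551, 357 to 382 and 429 to 462 FPKM, with 9 lower and 1 higher of 10 on day 1. On day 3, 8 of these 10 were still below control and 2 did not pass. Their median log2 change was -1.68 on day 1 and -0.758 on day 3. The 8 fibroblast and meningeal markers summed to 587 to 630, 1217 to 1304 and 685 to 820 FPKM, with 5 higher and 2 lower of 7 on day 1. The 6 mural markers went from 1174 to 1273 FPKM up to 2159 to 2236 and back to 1083 to 1173, and the 5 ependymal markers from 126 to 140 FPKM down to 74.1 to 83.0 and back to 115 to 131. The 6 neuron markers summed to 101 to 102 FPKM in control, 108 to 111 on day 1 and 108 to 110 on day 3, and the 3 tested rose on day 1. The 6 endothelial markers summed to 12.8 to 13.6, 12.7 to 13.5 and 14.7 to 15.9 FPKM, and the 1 tested did not pass on day 1. No marker of any list was at 0 in every library, and Rbfox3 of the neuron list and Cldn5 of the endothelial list were the ones under 0.1 FPKM in all 9. In bulk RNA, fewer cells of a type and less RNA per cell cannot be told apart, and the part of these shifts in the results below was not tested. Ribosomal precursor reads assigned to Rn45s made up 9.42% to 11.9% of a control library, 7.68% to 9.37% on day 1 and 9.15% to 11.1% on day 3. The share was highest in control replicate 1 and day 3 replicate 2, and every day 1 share was below every control share. The part of these group differences in depth and Rn45s share in the day 1 results was not tested.

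Most of the member genes were higher on day 1 than in control, and most of those were back near control on day 3. On day 1, 24 of the 33 tested members rose, 3 fell and 6 did not pass the test. Over all 12611 genes tested, 31.1% rose and 31.1% fell, 62.2% in all. The median log2 fold change was 0.398 over the members and -0.001 over all genes tested. In 23 members every day 1 library lay above every control library, and in 5 every one lay below, against 28.8% and 37.3% of all genes tested. Trib3, Asns, Slc7a3, Mthfd2 and Nupr1 rose at least 2-fold, a rise seen in 1.47% of all genes tested.

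On day 3, 8 members were above control, 1 was below and 24 did not pass, against 7.37% and 6.45% of all genes tested. The median was 0.07 over the members and 0.006 over all genes. No member was 2-fold above control, as 0.0317% of all genes were. The 8 were Atf5, Ddit3, Nupr1, Sesn2, Pycr1, Asns, Slc7a5 and Slc1a4, and the member below control was Psat1. From day 1 to day 3, 22 members fell, 4 rose and 7 did not pass, against 28.4% and 27.9% of all genes tested (56.2% in all), with a median of -0.386 over the members and 0.001 over all genes. In 23 members every day 3 library lay below every day 1 library, against 28.9% of all genes tested. The comparisons share the control or the day 1 libraries, so they are not independent of each other. Levels are the deposited FPKM, that is, fragments relative to gene length and to the library total. A fold change was fitted to log2(FPKM + 0.1) of the rescaled levels, which understates changes of low genes, and is given with 95% intervals and limma adjusted p-values.

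**Figure D1:**
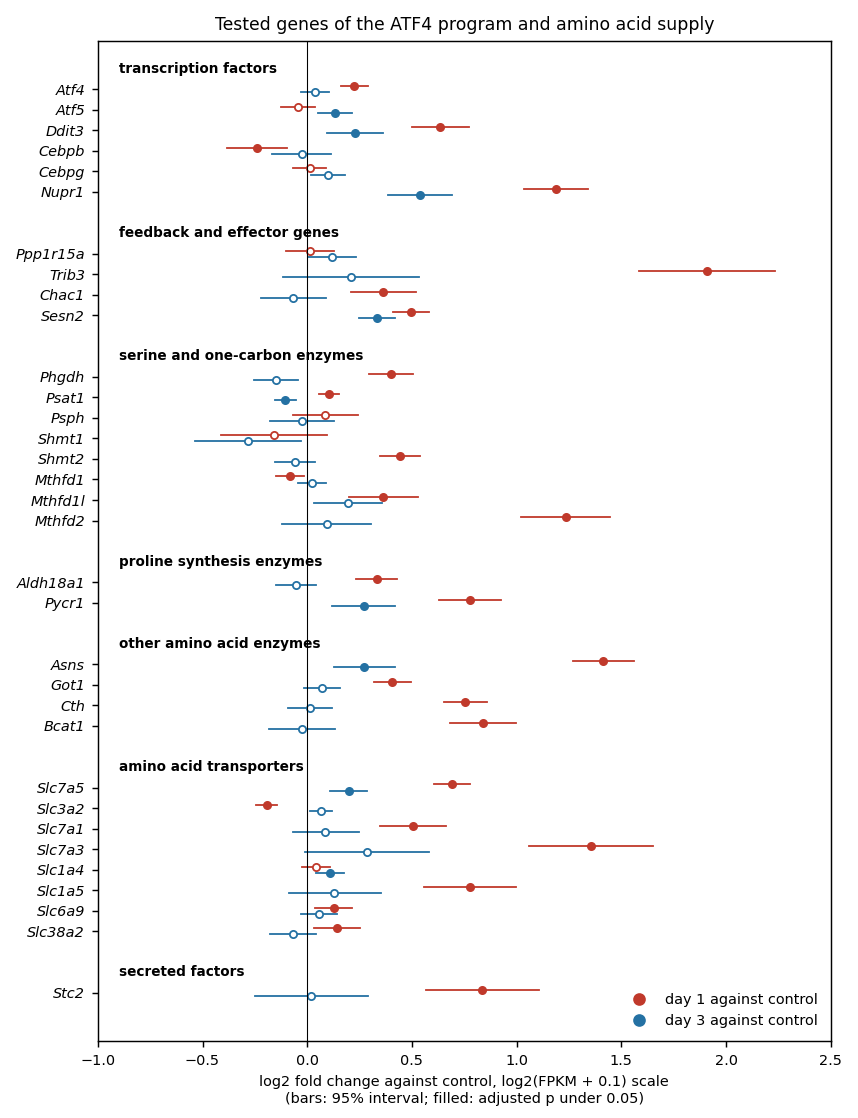
Log2 fold change (x axis) of each of the 33 tested members against control on day 1 (red) and day 3 (blue), grouped by role. Points are the fitted values, bars their 95% intervals, and filled points passed an adjusted p under 0.05. Trib3 (1.91) and Asns (1.41) lie farthest to the right on day 1, Cebpb (-0.24) and Slc3a2 (-0.19) farthest to the left among those that passed, and most blue points lie near 0.

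A sequence that ATF4 and its C/EBP partners are known to bind, the C/EBP-ATF response element, was looked for as TGATGNAA on either strand in the 250 bases before the transcription start in RefSeq (GRCm38.p6), with no other motif searched. A RefSeq window was found for 30 of the 34 members. Asns, Nupr1, Pycr1, Chac1, Got1 and Fgf21 held the letters, which is 20% of the 30 members. Of all 27025 genes with a window, 3.91% held them. The members were chosen as genes of the ATF4 program, so this higher share is no test of them. Of the 6, 5 were tested and rose on day 1, as did 24 of all 33 tested members. The stretches around the matches are shown as a description. The stretches read 5′ to 3′ on the gene's own strand, with the match in capitals. Those of Nupr1 and Asns overlap an annotated exon of the same gene and were cut to 30 bases. TTGCATCA is the element read from the other strand.
Nupr1, chr7:126625562-126625591, minus strand: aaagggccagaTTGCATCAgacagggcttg
Asns, chr6:7693214-7693243, minus strand: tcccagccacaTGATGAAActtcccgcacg
Pycr1, chr11:120643798-120643897, minus strand: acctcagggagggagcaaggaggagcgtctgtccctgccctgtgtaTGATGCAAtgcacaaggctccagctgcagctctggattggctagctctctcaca
Chac1, chr2:119351003-119351102, plus strand: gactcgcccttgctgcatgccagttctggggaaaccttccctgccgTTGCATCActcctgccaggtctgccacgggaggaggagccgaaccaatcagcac
Got1, chr19:43524654-43524753, minus strand: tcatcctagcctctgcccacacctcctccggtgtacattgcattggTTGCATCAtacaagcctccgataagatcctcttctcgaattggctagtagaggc
Fgf21, chr7:45615576-45615675, minus strand: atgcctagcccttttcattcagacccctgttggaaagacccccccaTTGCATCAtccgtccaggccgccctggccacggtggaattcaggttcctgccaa

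The match began 23 bases before the start in Asns, 102 in Got1, 103 in Pycr1, 110 in Nupr1, 139 in Fgf21 and 193 in Chac1. Across the table, of the 226 tested genes whose window held them, 29.6% rose and 35% fell on day 1, and of the 9950 tested genes with a window 31.3% rose. A match is a description of the letters and not a bound site. Trib3 and Mthfd2, which rose, have a window without these letters, from which nothing follows about binding. Slc7a3, Slc1a5, Cth and Slc7a5 were not searched.

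Among the transcription factors, 3 of 6 rose on day 1, 1 fell and 2 did not pass. The day 1 counts by role, here and below, stand against 31.1% higher and 31.1% lower over all genes tested. Atf4 itself (chromosome 15, 80255184 to 80257545, GRCm38.p6 here and below) moved little. Its level was 65.3, 66.5 and 69.3 FPKM in the control libraries, 74.7, 76.8 and 78.3 FPKM on day 1 and 67.8, 66.3 and 69.8 FPKM on day 3. Every day 1 library lay above the other 6, and the control and day 3 ranges overlapped. The rise on day 1 was 1.17-fold (95% interval 1.12 to 1.22, adjusted p = 7.91e-05), and the fall from day 1 to day 3 was 1.14-fold (adjusted p = 0.00036). Because ATF4 is set largely by translation, its messenger RNA is not a measure of its protein.

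Ddit3 (chromosome 10, 127290793 to 127296291) encodes CHOP, a C/EBP family factor linked to cell death in prolonged stress. It stood at 13.4, 15.6 and 15.8 FPKM in control, 22.7, 21.7 and 23.6 FPKM on day 1 and 17.4, 16.1 and 18.3 FPKM on day 3. The 3 groups did not overlap, with day 3 between the others. The day 1 level was 1.55-fold control (1.42 to 1.71, adjusted p = 6.76e-06) and the day 3 level 1.17-fold (1.07 to 1.29, adjusted p = 0.0322). The day 3 call was lost without control replicate 1 (adjusted p = 0.0925), day 3 replicate 1 (0.0915) or day 3 replicate 3 (0.115), with no filter on low values (0.0644), without rescaling (0.0609) and with only the 6 libraries compared (0.0510). Ddit3 shares 4.0% of its annotated exon bases with Mars1 on the opposite strand, which rose 1.10-fold, and no source used here states whether the counting used strand.

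Nupr1 (chromosome 7, 126623246 to 126625470), a small stress-induced nuclear protein, had the largest fold change of the members called higher on day 3. Control libraries had 44.2, 41.3 and 46.5 FPKM, day 1 libraries 92.8, 100.4 and 100.7 FPKM and day 3 libraries 64.1, 56.0 and 69.9 FPKM. The groups were fully apart, with control lowest and day 1 highest. It rose 2.28-fold on day 1 (2.05 to 2.53, adjusted p = 1.87e-07) and was 1.45-fold control on day 3 (1.30 to 1.61, adjusted p = 0.000786). Between the days it fell 1.57-fold (adjusted p = 2.03e-05).

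The other 3 factors did not rise on day 1. Cebpb, a binding partner of ATF4, fell from 26.3 ± 2.54 to 21.7 ± 0.997 FPKM, a log2 change of -0.24 (-0.38 to -0.10, adjusted p = 0.00726), and was at 25.4 ± 1.16 FPKM on day 3. Its rise between the days (0.21, adjusted p = 0.0155) was lost without day 1 replicate 1 (0.0640), day 3 replicate 2 (0.0503) or day 3 replicate 3 (0.05045), and without the 2 libraries with the most Rn45s reads (0.0580). Cebpb is uncertain in these data, since 20.7% of its exon bases overlap Tmem189 on the opposite strand, which fell by 0.27 on the log2 scale on day 1. Cebpg, another partner, read 11.4 ± 0.282, 11.2 ± 0.367 and 12.1 ± 0.552 FPKM and passed in no comparison. Its difference between the days passed without day 3 replicate 2 (adjusted p = 0.0369), with a filter of 5 FPKM (0.0311) and without the 2 libraries with the most Rn45s reads (0.0469).

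Atf5, a relative of ATF4 that is also set by translation, behaved differently from Atf4. Its level was 63.2, 65.5 and 68.3 FPKM in control, 62.3, 62.6 and 62.0 FPKM on day 1 and 67.8, 73.5 and 72.3 FPKM on day 3. On day 1 all libraries lay below control, but the log2 change of -0.04 (-0.12 to 0.04) did not pass (adjusted p = 0.326); with quantile normalization it was -0.13 and passed (adjusted p = 0.00694). From day 1 to day 3 it rose 1.13-fold (1.07 to 1.19, adjusted p = 0.00207). The day 3 level was 1.10-fold control (adjusted p = 0.0375), a call lost without control replicate 1 (0.116) or 2 (0.103), without day 1 replicate 1 (0.0559), 2 (0.0574) or 3 (0.0502), and without day 3 replicate 2 (0.0908) or 3 (0.110). It was also lost with no filter (0.0623), without rescaling (0.0714), with only the 6 libraries compared (0.0870) and without the 2 libraries with the most Rn45s reads (0.200). Atf5 shares 4.1% of its annotated exon bases with Nup62 on the opposite strand, whose mean was 8.46 FPKM.

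**Figure D2:**
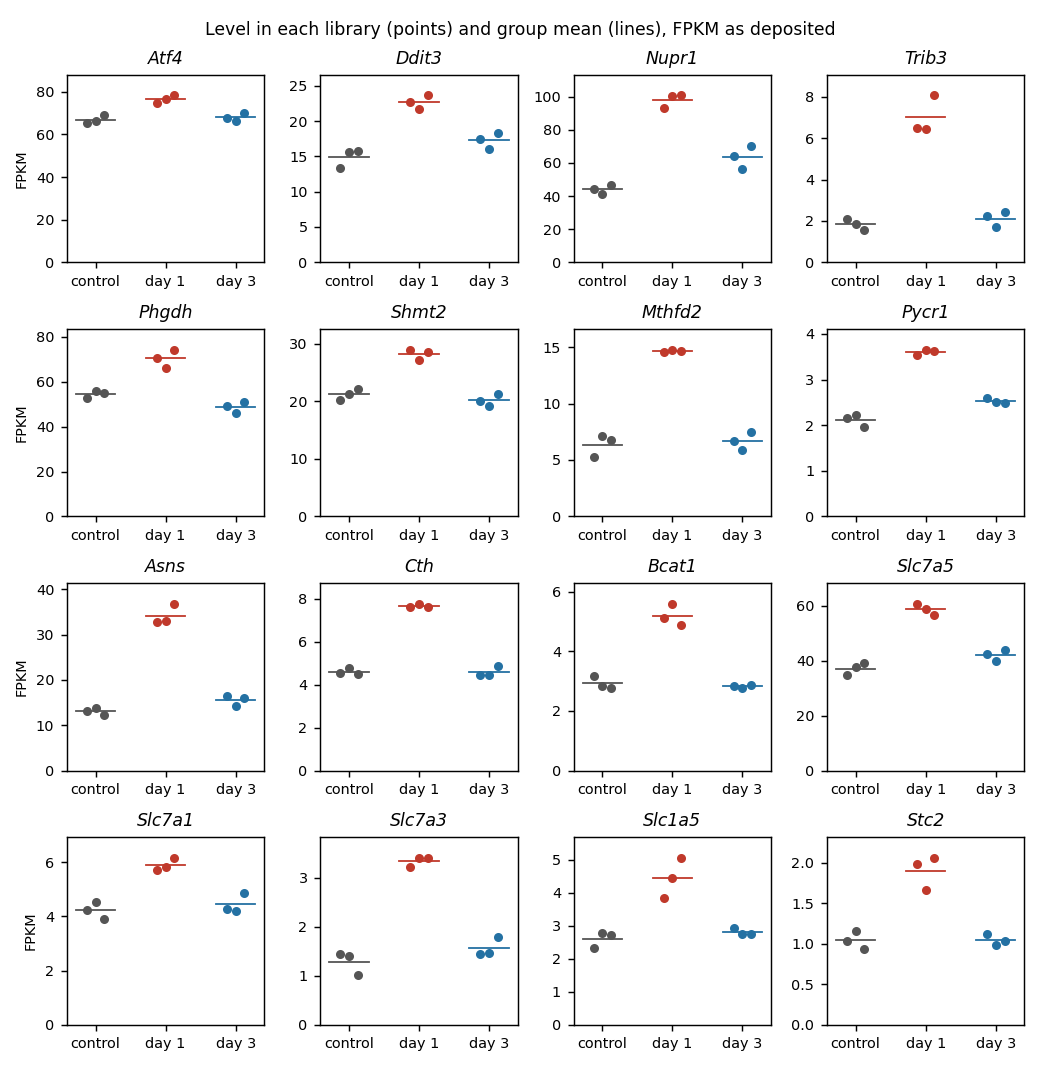
FPKM as deposited (y axis, from 0) in each of the 9 libraries, by group, for 16 of the members given library by library; points are libraries and lines are group means. In each panel the 3 day 1 points lie above the 3 control points, and in most the day 3 points lie at or near the control level, with Nupr1 (44.0 FPKM in control, 63.3 on day 3) between.

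Of the 4 feedback and effector genes, 3 rose on day 1 and 1 did not pass. Trib3 (chromosome 2, 152337425 to 152344060), a pseudokinase that binds ATF4 and dampens the response, had the largest fold change of the tested members. Its level was 2.11, 1.84 and 1.55 FPKM in control, 6.49, 6.44 and 8.07 FPKM on day 1 and 2.22, 1.70 and 2.43 FPKM on day 3. Day 1 lay far above both other groups, which overlapped each other. The rise was 3.76-fold (3.00 to 4.71, adjusted p = 1.29e-06) and the fall from day 1 to day 3 was 3.25-fold (adjusted p = 4.62e-06), leaving day 3 at 1.16-fold control (0.923 to 1.45, adjusted p = 0.401).

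Sesn2, a leucine-binding protein that restrains the growth kinase complex mTORC1, went from 20.7 ± 0.792 to 28.6 ± 0.714 FPKM on day 1 and was at 25.8 ± 1.17 FPKM on day 3. It rose 1.41-fold on day 1 (1.33 to 1.50, adjusted p = 1.41e-06) and was still 1.26-fold control on day 3 (1.19 to 1.34, adjusted p = 0.000445). With Nupr1 and Slc7a5 it was one of the 3 members whose day 3 rise passed at an adjusted p under 0.01. Chac1, which breaks down glutathione, rose 1.29-fold on day 1 (1.16 to 1.43, adjusted p = 0.000999), from 4.81 ± 0.223 to 6.08 ± 0.374 FPKM, and was at 4.54 ± 0.352 FPKM on day 3. Ppp1r15a, the GADD34 subunit that directs a phosphatase to eIF2, read 16.5 ± 0.782 FPKM in control, 16.3 ± 0.838 on day 1 and 17.7 ± 0.736 on day 3. Its day 1 fold change of 1.01 had an interval of 0.931 to 1.09, and its difference between the days passed without day 1 replicate 3 (adjusted p = 0.0201).

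Of the 8 serine and one-carbon enzymes, 5 rose on day 1, 1 fell and 2 did not pass. The 3 mitochondrial folate enzymes of these 8 were among those that rose. Mthfd2 (chromosome 6, 83305704 to 83326011), the mitochondrial enzyme that oxidizes methylene-tetrahydrofolate, changed most. It read 5.28, 7.08 and 6.75 FPKM in control, 14.5, 14.8 and 14.7 FPKM on day 1 and 6.71, 5.92 and 7.48 FPKM on day 3. The day 1 libraries lay close together and above all others, and control and day 3 overlapped. The rise was 2.35-fold (2.03 to 2.73, adjusted p = 1.43e-06), followed by a 2.20-fold fall (adjusted p = 3.95e-06). Mthfd2l, outside the members and named after its value was seen, did not rise on day 1. Its log2 change of -0.15 (-0.305 to 0.004) did not pass (adjusted p = 0.0825).

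Shmt2 (chromosome 10, 127517123 to 127522444) makes glycine and one-carbon units from serine in mitochondria. Its level was 20.2, 21.3 and 22.2 FPKM in control, 29.0, 27.2 and 28.6 FPKM on day 1 and 20.1, 19.1 and 21.2 FPKM on day 3, with day 1 apart from both other groups. It rose 1.36-fold (1.27 to 1.45, adjusted p = 7.77e-06) and fell 1.42-fold by day 3 (adjusted p = 4.65e-06). Mthfd1l, the mitochondrial formate-producing enzyme, rose 1.29-fold on day 1 (1.15 to 1.44, adjusted p = 0.0014), from 3.77 ± 0.352 to 4.76 ± 0.118 FPKM. It stood at 4.28 ± 0.250 FPKM on day 3, which did not pass against control (adjusted p = 0.109) or against day 1 (0.0739). Without control replicate 1 both passed (0.0345 and 0.0386), and without control replicate 2 the second did (0.0412). With limma-voom both passed (0.0282 and 0.0409), the first also without the 2 libraries with the most Rn45s reads (0.0276) and the second also with quantile normalization (0.0457) and with only the 6 libraries compared (0.0314).

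The cytosolic counterparts Shmt1 and Mthfd1 were not called higher. Shmt1 read 1.73 ± 0.102 FPKM in control, 1.50 ± 0.0830 on day 1 and 1.39 ± 0.191 on day 3. Neither day passed (day 1 log2 change -0.16, -0.41 to 0.09, adjusted p = 0.245), although both days' libraries lay below all control libraries. Shmt1 shares 4.7% of its annotated exon bases with Smcr8 on the opposite strand, whose mean was 5.94 FPKM. Mthfd1, the cytosolic folate enzyme with several activities, fell slightly on day 1, from 36.9 ± 0.841 to 34.1 ± 1.14 FPKM, a log2 change of -0.08 (-0.15 to -0.02, adjusted p = 0.0315), and was at 37.1 ± 1.09 FPKM on day 3. The day 1 call was lost without control replicate 2 (0.0605) or 3 (0.0843) and without day 1 replicate 2 (0.135) or 3 (0.0664), and with no filter (0.0620). Its 1.08-fold rise between the days (adjusted p = 0.0112) was lost without day 1 replicate 2 (0.0556).

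The other enzymes of the group make serine. Phgdh (chromosome 3, 98313171 to 98339969), which starts serine synthesis from a glycolytic intermediate, read 52.6, 55.9 and 55.1 FPKM in control, 70.7, 66.2 and 74.3 FPKM on day 1 and 49.4, 45.9 and 50.9 FPKM on day 3. The groups did not overlap, with day 1 highest and day 3 lowest. It rose 1.32-fold on day 1 (1.23 to 1.42, adjusted p = 3.43e-05) and fell 1.46-fold by day 3 (adjusted p = 5.03e-06). Day 3 was 0.903-fold control (0.839 to 0.971) without passing (adjusted p = 0.0667), but it passed without day 1 replicate 2 (0.0310) or 3 (0.0297). It also passed with a higher filter of 5 FPKM (0.0421), quantile normalization (0.0350), only the 6 libraries compared (0.0248) and limma-voom (0.0126). An annotated pseudogene, Phgdh-ps1, could share reads with it, and no source used here states how such reads were counted.

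Psat1, the next enzyme of the pathway, was among the most abundant members at 79.8 ± 0.816 FPKM in control, 83.8 ± 1.33 on day 1 and 73.4 ± 2.26 on day 3. Its groups did not overlap. It rose 1.07-fold on day 1 (adjusted p = 0.00221), a call lost without rescaling (0.0559) and with quantile normalization (0.649), and lay 1.07-fold below control on day 3 (adjusted p = 0.013), a call lost without the 2 libraries with the most Rn45s reads (0.0790). Between the days it fell 1.16-fold (adjusted p = 2.32e-05). Psph, the last enzyme, read 17.2 ± 1.42, 17.8 ± 0.228 and 16.7 ± 1.36 FPKM and passed in no comparison (day 1 log2 change 0.09, -0.07 to 0.24). Its difference between the days passed without day 3 replicate 2 (0.0272) and without the 2 libraries with the most Rn45s reads (0.0346). Psph overlaps the abundant Cct6a on the opposite strand over 10.4% of its exon bases, and Cct6a rose by 0.26 on the log2 scale on day 1.

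Both proline synthesis enzymes rose on day 1. Pycr1 (chromosome 11, 120638998 to 120643748), which makes proline in mitochondria, read 2.15, 2.23 and 1.96 FPKM in control, 3.54, 3.66 and 3.62 FPKM on day 1 and 2.60, 2.51 and 2.49 FPKM on day 3. The groups did not overlap, and day 3 lay between the others. It rose 1.71-fold on day 1 (1.54 to 1.90, adjusted p = 3.22e-06) and was 1.21-fold control on day 3 (1.09 to 1.34, adjusted p = 0.0246). The day 3 call was lost without control replicate 3 (0.0778) or day 3 replicate 1 (0.0848), 2 (0.0525) or 3 (0.0575), with only the 6 libraries compared (0.0626) and without the 2 libraries with the most Rn45s reads (0.0756). Aldh18a1, which makes the precursor from glutamate, rose 1.26-fold on day 1 (1.18 to 1.35, adjusted p = 7.2e-05), from 16.3 ± 0.237 to 20.0 ± 0.469 FPKM, and was at 15.5 ± 1.17 FPKM on day 3.

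The 4 other amino acid enzymes all rose on day 1 and fell by day 3. Asns (chromosome 6, 7675165 to 7693209), which makes asparagine from aspartate and glutamine and is a classic ATF4 target, read 13.0, 13.9 and 12.2 FPKM in control, 32.8, 33.0 and 36.8 FPKM on day 1 and 16.5, 14.3 and 16.1 FPKM on day 3. The groups did not overlap, with day 3 just above control. Its rise was 2.67-fold (2.41 to 2.95, adjusted p = 5.14e-08) and its fall by day 3 was 2.21-fold (adjusted p = 3.56e-07). Day 3 remained 1.21-fold above control (1.09 to 1.34, adjusted p = 0.0219), a call lost without control replicate 3 (0.0784), day 3 replicate 1 (0.0848) or day 3 replicate 3 (0.0732).

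Bcat1 (chromosome 6, 144993835 to 145076157) transfers the amino group of branched-chain amino acids in the cytosol. It read 3.18, 2.83 and 2.77 FPKM in control, 5.10, 5.60 and 4.89 FPKM on day 1 and 2.85, 2.78 and 2.88 FPKM on day 3. Day 1 was apart from both other groups, which overlapped. The rise was 1.79-fold (1.60 to 1.99, adjusted p = 2.58e-06) and the fall 1.82-fold (adjusted p = 3.28e-06).

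Cth (chromosome 3, 157894248 to 157925081), which makes cysteine from cystathionine, had 4.55, 4.77 and 4.49 FPKM in control, 7.60, 7.78 and 7.62 FPKM on day 1 and 4.47, 4.46 and 4.88 FPKM on day 3. Day 3 and control overlapped, and day 1 lay above both. The rise was 1.69-fold (1.57 to 1.81, adjusted p = 2.95e-07) and the fall 1.67-fold (adjusted p = 6.09e-07), leaving day 3 at 1.01-fold control (0.940 to 1.09). Got1, the cytosolic aspartate aminotransferase, rose 1.33-fold (1.25 to 1.41, adjusted p = 7.31e-06), from 12.5 ± 0.460 to 16.2 ± 0.434 FPKM, and was at 13.0 ± 0.629 FPKM on day 3.

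Of the 8 amino acid transporters, 6 rose on day 1, 1 fell and 1 did not pass. Slc7a5 (chromosome 8, 121881146 to 121907686), the light chain of the exchanger for large neutral amino acids, read 34.8, 37.6 and 39.2 FPKM in control, 60.8, 58.7 and 56.7 FPKM on day 1 and 42.5, 40.1 and 43.8 FPKM on day 3. The groups did not overlap, and day 3 lay just above control. It rose 1.62-fold on day 1 (1.52 to 1.72, adjusted p = 1.61e-07) and was 1.15-fold control on day 3 (1.08 to 1.22, adjusted p = 0.00847).

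Its heavy chain went the other way. Slc3a2, which carries Slc7a5 and several other light chains to the membrane, had the highest level of all 34 members in control. It read 97.6, 98.5 and 100.4 FPKM in control, 84.9, 85.2 and 83.3 FPKM on day 1 and 102.0, 103.1 and 101.6 FPKM on day 3, and the groups did not overlap. It fell by 0.19 on the log2 scale on day 1 (-0.24 to -0.14, adjusted p = 3.21e-05) and rose 1.20-fold from day 1 to day 3 (1.16 to 1.24, adjusted p = 5.63e-06). Day 3 did not pass against control (1.05-fold, adjusted p = 0.0906).

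Both transporters for cationic amino acids such as arginine rose on day 1. Slc7a3 (chromosome X, 101079146 to 101090452) read 1.44, 1.41 and 1.01 FPKM in control, 3.22, 3.40 and 3.40 FPKM on day 1 and 1.44, 1.46 and 1.79 FPKM on day 3. Slc7a1 (chromosome 5, 148327410 to 148399904) read 4.25, 4.51 and 3.90 FPKM in control, 5.70, 5.81 and 6.16 FPKM on day 1 and 4.27, 4.21 and 4.85 FPKM on day 3. In both genes day 1 lay above all other libraries. The day 3 libraries lay above the highest control library in Slc7a3, the lowest of them by little, and overlapped control in Slc7a1. Slc7a3 rose 2.56-fold (2.08 to 3.14, adjusted p = 8.29e-06) and fell 2.10-fold by day 3 (adjusted p = 6.38e-05). Slc7a1 rose 1.42-fold (1.27 to 1.58, adjusted p = 0.000113) and fell 1.34-fold (adjusted p = 0.000545).

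The 2 exchangers of small neutral amino acids differed. Slc1a5 (chromosome 7, 16781334 to 16798274), known for glutamine exchange, read 2.32, 2.77 and 2.72 FPKM in control, 3.83, 4.44 and 5.05 FPKM on day 1 and 2.93, 2.76 and 2.76 FPKM on day 3. Day 1 was the most spread group and lay above both others, which overlapped. It rose 1.71-fold (1.47 to 1.99, adjusted p = 5.69e-05) and fell 1.56-fold by day 3 (adjusted p = 0.000272). Slc1a4, an exchanger of serine and alanine with a control level of 38.9 ± 0.487 FPKM, had a day 1 fold change of 1.03 (0.983 to 1.08, adjusted p = 0.243). On day 3 it was at 41.5 ± 1.47 FPKM, 1.08-fold control (adjusted p = 0.038), a call lost without control replicate 1 (0.0870), 2 (0.0852) or 3 (0.106), day 1 replicate 2 (0.0574), or day 3 replicate 1 (0.134) or 3 (0.113). It was also lost without rescaling (0.152), with quantile normalization (0.0524) and without the 2 libraries with the most Rn45s reads (0.0619). Its difference between the days passed without day 3 replicate 2 (0.0479), with a filter of 5 FPKM (0.0403) and with quantile normalization (0.0142).

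The 2 remaining transporters rose by small steps on day 1. Slc6a9, a glycine transporter, went from 10.2 ± 0.388 to 10.9 ± 0.310 FPKM, a log2 change of 0.13 (0.04 to 0.21, adjusted p = 0.0166), a call lost without control replicate 2 (0.0707) and without rescaling (0.0734). Over 27.8% of its exon bases Slc6a9 overlaps Ccdc24 on the opposite strand, whose mean was 1.61 FPKM. Slc38a2, which takes up small neutral amino acids such as alanine, went from 48.0 ± 1.74 to 51.8 ± 2.85 FPKM, a log2 change of 0.14 (0.03 to 0.25, adjusted p = 0.0275), and its day 1 and control libraries overlapped. This call was lost without control replicate 2 (0.0994) or 3 (0.0878), without day 1 replicate 1 (0.103) or 3 (0.0786), without rescaling (0.0653) and with quantile normalization (0.144). By day 3 Slc38a2 had fallen to 45.2 ± 2.18 FPKM, 1.16-fold below day 1 (adjusted p = 0.00403).

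The 2 secreted factors had the lowest control means of the members. Stc2 (chromosome 11, 31359441 to 31370061), a secreted glycoprotein, read 1.03, 1.16 and 0.938 FPKM in control, 1.98, 1.66 and 2.06 FPKM on day 1 and 1.11, 0.990 and 1.03 FPKM on day 3. Day 1 lay above both other groups, and the day 3 values lay within the control range. It rose 1.78-fold (1.48 to 2.15, adjusted p = 0.000147) and fell 1.76-fold by day 3 (adjusted p = 0.000223).

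Fgf21 (chromosome 7, 45613890 to 45615490), a hormone of metabolic stress, was below the filter. It read 0.244, 0.0825 and 0.570 FPKM in control, 3.08, 1.97 and 2.20 FPKM on day 1 and 0.346, 0.259 and 0.201 FPKM on day 3. Day 1 lay above all other libraries, and control was spread from the lowest to the highest of the remaining values. In reads, the 3 control libraries held 27 together, the day 1 libraries 169 and the day 3 libraries 26. The ratio of mean levels to control was 8.09 on day 1 and 0.9 on day 3. Without control replicate 3, the highest control library, these ratios were 14.8 and 1.65, and with any other library left out they ran from 5.94 to 8.84 and from 0.66 to 1.01. In the fit with no filter the day 1 difference passed (adjusted p = 0.000414), as did the fall by day 3 (adjusted p = 0.000636), and day 3 against control did not (adjusted p = 0.960).

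Several members work beside a partner in the same exchanger or reaction, and the ratio of their levels was compared within each library. The ratio of Slc3a2 to Slc7a5 levels was 2.81, 2.62 and 2.56 in the control libraries, 1.40, 1.45 and 1.47 on day 1 and 2.40, 2.57 and 2.32 on day 3. The heavy chain stayed above the one light chain in every library, and no day 1 ratio reached the range of the others. The ratio of Mthfd2 to its cytosolic counterpart Mthfd1 was 0.172 ± 0.0228 in control, 0.431 ± 0.0176 on day 1 and 0.180 ± 0.0175 on day 3. For Shmt2 to Shmt1 it was 12.3 ± 1.32, 18.9 ± 1.48 and 14.7 ± 2.27.

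Set against Prodh, which breaks proline down, Pycr1 went from a ratio of 0.602 ± 0.0537 to 1.91 ± 0.154 on day 1 and 0.804 ± 0.0570 on day 3. In all 4 ratios day 1 did not overlap control, and a two-sided exact permutation test gave p = 0.1 for each, the smallest value that 3 against 3 libraries allow.

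**Figure D3:**
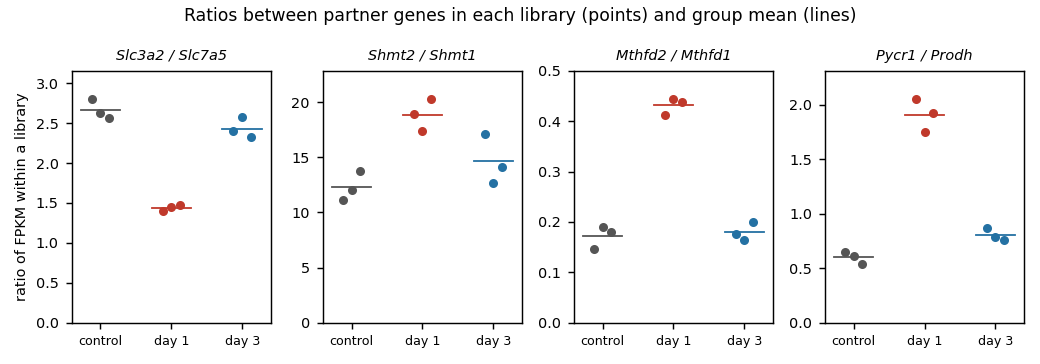
Ratio of the FPKM of 2 partner genes within each library (y axes, from 0), by group; points are libraries and lines are group means. The Slc3a2 to Slc7a5 ratio is lowest on day 1 (1.44 on average, 2.66 in control), and the other 3 ratios are highest on day 1, such as Mthfd2 to Mthfd1 (0.431 against 0.172 in control).

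Genes around the members were taken from 8 lists, to show what else of the pathway moved. Beside the list counts, 31.1% of all genes tested rose and 31.1% fell on day 1. On day 3, 7.37% were above control and 6.45% below. From day 1 to day 3, 28.4% fell and 27.9% rose. Upstream of ATF4, of the 14 genes of eIF2 signalling 6 rose on day 1, 3 fell and 5 did not pass, with a median log2 change of 0.069. Eif2s1, the eIF2 subunit that is phosphorylated, rose from 15.6 ± 0.236 to 20.4 ± 0.937 FPKM (log2 change 0.41, adjusted p = 1.51e-06). Of the 4 eIF2 kinases, Eif2ak3, the sensor of the endoplasmic reticulum, rose by 0.15 (adjusted p = 0.00876). Eif2ak4, the amino acid sensor, rose by 0.14 (0.03 to 0.245, adjusted p = 0.0293), which does not pass at an adjusted p under 0.01. Eif2ak1 (-0.03) and Eif2ak2 (0.08) did not pass. All 4 are named after their values were seen, and their results under other settings are not given. Impact, which restrains the amino acid sensor, rose by 0.23 (adjusted p = 0.000437).

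Eif2b3, a subunit of the exchange factor eIF2B, rose by 0.20 on day 1 (adjusted p = 0.0329), a call lost without control replicate 1 (0.0987) or 3 (0.0658), without day 1 replicate 2 (0.107) or 3 (0.0790), without rescaling (0.0713) and without the 2 libraries with the most Rn45s reads (0.0986). Ppp1r15b, the constitutive counterpart of Ppp1r15a, fell by 0.19 (adjusted p = 0.00332). Dele1, which relays mitochondrial stress, fell by 0.18 (adjusted p = 0.0159), a call lost without control replicate 2 (0.0591) or day 1 replicate 3 (0.0643). Gcn1, which activates the amino acid sensor at ribosomes, fell by 0.09 (adjusted p = 0.0373), a call lost without control replicate 2 (0.128) or 3 (0.0533) or without day 1 replicate 1 (0.0566), 2 (0.0693) or 3 (0.108), and with no filter (0.0670). On day 3 none of the 14 passed against control by limma.

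Cytosolic aminoacyl-tRNA synthetases, which load amino acids onto transfer RNA and are known ATF4 targets, rose widely on day 1. Of 20 tested, 17 rose, none fell and 3 did not pass, with a median log2 change of 0.272. Those for glycine, isoleucine and cysteine rose most: Gars from 35.0 ± 0.926 to 61.1 ± 2.41 FPKM (1.78-fold, adjusted p = 3.8e-08), Iars from 17.8 ± 0.572 to 27.4 ± 0.862 FPKM (1.57-fold, adjusted p = 1.43e-07) and Cars from 12.8 ± 0.249 to 19.7 ± 0.0881 FPKM (1.56-fold, adjusted p = 8.02e-08). The 3 that did not pass were Vars (-0.04), Farsa (0.00) and Hars (0.09), named after their values were seen. By day 3, 16 of the 20 had fallen from day 1, and Cars was the one still above control (0.14, adjusted p = 0.0204), a call lost without control replicate 2 (0.0718) or day 3 replicate 3 (0.0826).

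Further known ATF4 targets moved both ways on day 1, with 8 higher, 4 lower and 5 not passing of 17 tested and a median of 0.126. Adm2 was below the filter. Gdf15, a secreted stress hormone, rose from 1.58 ± 0.0712 to 2.93 ± 0.119 FPKM (1.84-fold, adjusted p = 1.32e-05). The lipoprotein receptor gene Vldlr rose 1.70-fold (adjusted p = 5.91e-06), and Eif4ebp1, an inhibitor of cap-dependent translation, rose 1.55-fold (adjusted p = 8.16e-06). Ndrg1, also known from hypoxia, fell by 0.50 on the log2 scale (adjusted p = 2.74e-07) and was still lower on day 3 (-0.13, adjusted p = 0.019), a day 3 call lost when control replicate 1 (0.0722), control replicate 2 (0.0531), day 3 replicate 1 (0.0614) or day 3 replicate 3 (0.0759) was left out, and without the 2 libraries with the most Rn45s reads (0.0566). From day 1 to day 3, 8 of the 17 fell and 4 rose.

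Slc7a11, the cystine importer, fell from 2.86 ± 0.205 to 2.09 ± 0.120 FPKM on day 1 (-0.41, adjusted p = 0.00171) and was above control on day 3 at 3.92 ± 0.380 FPKM (0.45, adjusted p = 0.00594). Atf3, a related stress factor, fell by 0.29 on day 1 (adjusted p = 0.0188), a call lost when control replicate 2 (0.0600), control replicate 3 (0.0591) or day 1 replicate 2 (0.0628) was left out. The fourth that fell was Map1lc3b (-0.23), an autophagy gene named after its value was seen.

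Of 18 other folate and methyl cycle enzymes tested, 8 rose on day 1, 3 fell and 7 did not pass, with a median of 0.065; Bhmt was below the filter. Aldh1l2, the mitochondrial enzyme that burns surplus one-carbon units, rose from 7.69 ± 0.116 to 11.3 ± 0.201 FPKM (1.49-fold, adjusted p = 5.6e-06) and was below control on day 3 at 6.57 ± 0.601 FPKM (-0.21, adjusted p = 0.026). The day 3 call was lost without control replicate 1 (0.0666), 2 (0.0715) or 3 (0.0699), with no filter (0.0512) and without the 2 libraries with the most Rn45s reads (0.0839). Mtr, methionine synthase, rose 1.42-fold (adjusted p = 1.86e-06), and Tyms, thymidylate synthase, rose 1.41-fold (adjusted p = 0.000574). Gldc and Amt, both of the glycine cleavage system, fell by 0.53 (adjusted p = 1.88e-07) and 0.33 (adjusted p = 5.31e-05), and Cbs, which makes cystathionine, fell by 0.39 (adjusted p = 5.5e-05). On day 3 Aldh1l2 and Gldc were the 2 called against control, both lower. For Gldc (-0.11, adjusted p = 0.0394) this call was lost when control replicate 1 (0.0893), 2 (0.103) or 3 (0.0956), day 1 replicate 1 (0.0532), day 3 replicate 1 (0.123) or day 3 replicate 3 (0.126) was left out, with no filter (0.0515) and without the 2 libraries with the most Rn45s reads (0.0829).

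Amino acid enzymes outside the members went mostly down on day 1. Of 18 tested, 10 fell, 4 rose and 4 did not pass, with a median of -0.156, and Ass1 was below the filter. Prodh, which starts proline breakdown, fell from 3.52 ± 0.178 to 1.90 ± 0.185 FPKM (-0.83, adjusted p = 5.89e-06). Gatm, of creatine synthesis, fell by 0.78 (adjusted p = 0.00019) and stayed below control on day 3 (-0.50, adjusted p = 0.019), a day 3 call lost without control replicate 2 (0.0719) or day 3 replicate 1 (0.0683) or 3 (0.0633) and without the 2 libraries with the most Rn45s reads (0.0514). Oat, ornithine aminotransferase, fell from 173 ± 3.37 to 128 ± 7.47 FPKM (-0.40, adjusted p = 2.55e-06). The mitochondrial aminotransferase Got2 rose by 0.26 (adjusted p = 0.00041) and Aldh4a1, which completes proline breakdown to glutamate, by 0.17 (adjusted p = 0.00135). On day 3, 3 of the 18 were below control and 1 above.

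Of 19 other amino acid transporters tested, 7 rose on day 1, 7 fell and 5 did not pass, with a median of -0.005. These counts were near the shares over all genes tested, 31.1% higher and 31.1% lower. Slc38a5, Slc43a1 and Slc16a10 were below the filter. The taurine transporter Slc6a6 rose from 29.4 ± 0.172 to 46.7 ± 0.826 FPKM (1.62-fold, adjusted p = 5.88e-07), the creatine transporter Slc6a8 rose 1.52-fold (adjusted p = 1.21e-07) and Slc7a6, another partner of Slc3a2, rose 1.22-fold (adjusted p = 0.00101). The GABA transporter Slc6a11 fell from 3.23 ± 0.150 to 1.22 ± 0.123 FPKM (-1.31, adjusted p = 6.19e-07), and the glutamate transporters Slc1a1 and Slc1a2 fell by 1.17 (adjusted p = 5.48e-07) and 0.82 (adjusted p = 1.96e-07). Slc1a2 is one of the astrocyte markers given above. Slc1a1 was lower still on day 3, at 3.44 ± 0.180 FPKM against 10.2 ± 0.281 in control (-1.52, adjusted p = 3.68e-06). On day 3, 4 of the 19 were below control and 3 above.

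Genes of neighbouring stress responses were also measured. Of 19 genes of the ATF6 and IRE1 arms of the unfolded protein response, 13 rose on day 1, 2 fell and 4 did not pass, with a median of 0.262. The chaperone Hspa5 rose from 211 ± 5.13 to 290.4 ± 4.07 FPKM (1.41-fold, adjusted p = 7.62e-08), Hsp90b1 rose 1.42-fold (adjusted p = 6.57e-08) and Hyou1 1.39-fold (adjusted p = 2.5e-07). Pdia4, a disulfide isomerase, fell by 0.14 (adjusted p = 0.000677). Sdf2l1 fell by 0.26 (adjusted p = 0.0236), a call lost without control replicate 3 (0.0789) or without day 1 replicate 1 (0.0811) or 2 (0.0909) and with no filter (0.0556). On day 3, 4 of the 19 were above control and none below, and 12 had fallen from day 1.

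Of 8 mitochondrial stress genes, 4 rose, 1 fell and 3 did not pass, with a median of 0.215. The mitochondrial chaperones Hspa9, Hspd1 and Hspe1 rose by 0.47, 0.41 and 0.35 (adjusted p = 3.78e-07, 4.8e-06 and 2.63e-05). Hspd1 and Hspe1 have annotated pseudogenes that could share reads. The protease subunit Clpp fell by 0.29 (adjusted p = 0.000704). On day 3 none of the 8 was called against control.

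**Figure D4:**
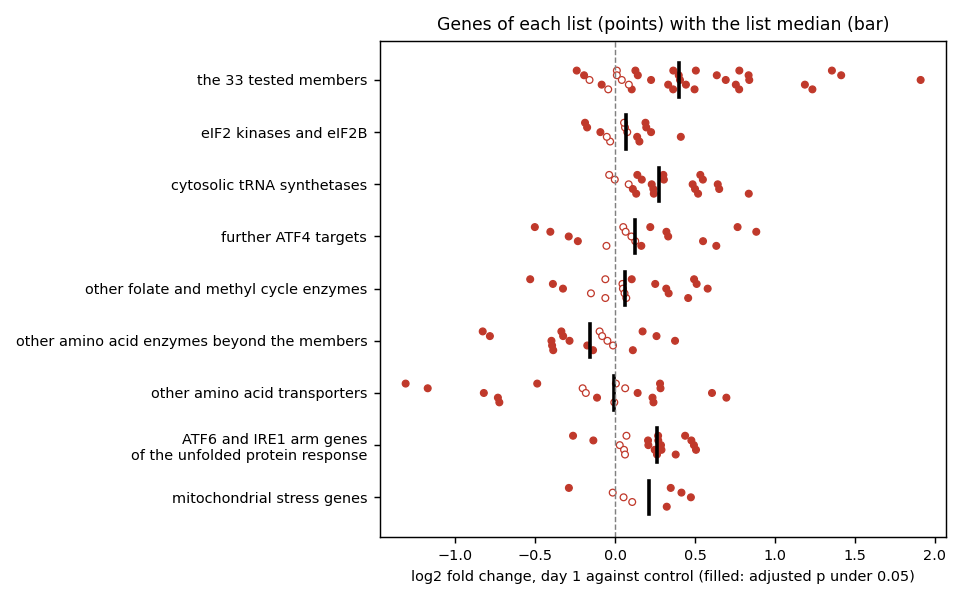
Log2 fold change on day 1 against control (x axis) of each gene tested in the 33 members and the 8 surrounding lists (rows); points are genes, filled where the adjusted p was under 0.05, and black bars are list medians. The members (median 0.398) and the tRNA synthetases (0.272) lie mostly to the right of 0, the other amino acid enzymes (-0.156) mostly to the left, and the other transporters (-0.005) on both sides.

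How many members were called higher on day 3 changed with the libraries included. Of the 8 members above control on day 3, 3 were called without day 3 replicate 3, 4 without day 3 replicate 1 and 5 without control replicate 3. The count over all genes changed with the same libraries, from 929 higher to 534 without day 3 replicate 3 and to 573 without day 3 replicate 1. Nupr1, Sesn2 and Slc7a5 were called on day 3 whichever of the 9 libraries was left out. The 5 rises of at least 2-fold on day 1 were also called in each of these fits.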

How the data were processed

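RNA-seq of 9 libraries was used: 3 control, 3 day 1 and 3 day 3. The authors deposited 1 table of FPKM values per gene. The submitters' processing notes name STAR 2.7.3a, cutadapt 2.6, FastQC 0.12.1 and DESeq2, and the builds GRCm38 and mm10. For the counting program, annotation, strand and reads with several matches: not given in the sources used here. Exon overlap shares were taken over all exons that GENCODE annotates for a gene, which need not be the exons counted. For Slc6a9 these exons covered 5141 bases, against a length of 3682 bases recovered from the deposited values.

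From these values, all 20350 genes above 0 gave whole reads within 0.01 read, and 1 FPKM of a 2 kb gene stood for 46.1 to 76.8 reads. FPKM values were rescaled by median-of-ratios factors of 0.975 to 1.019. Genes averaging 1 FPKM or more were tested as log2(FPKM + 0.1) by limma 3.58.1 with a mean-variance trend in R 4.3.3, over all 9 libraries in 1 fit with group as the only term. A call needed p under 0.05 after Benjamini-Hochberg adjustment over 12611 genes. Ratios used two-sided exact permutation tests (scipy 1.17.1). The fit was tested on simulated data.

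The members and lists were chosen with earlier results of these data known. Values in every library are given for Atf4, Ddit3 and each tested member with a log2 fold change of at least 0.5 in size in any comparison, and also for Atf5, Slc3a2 and Fgf21, chosen after their values were seen. From each list, up to 3 of the largest rises and falls on day 1 among called genes with no overlap between groups are named. A few results that this rule or the ratios would include are not reported here. Alternatives varied the filter, pseudocount, rescaling, libraries, block, threshold and tool, and limma-voom was run on the recovered reads. Libraries of the same group differed beyond counting noise, with chi-square per degree of freedom of 1.75 to 4.76.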

Additional observations from a re-analysis of the deposited data

Results flagged for a closer look

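For 3 genes the difference from control was called in opposite directions on the 2 days, and the difference between the days was itself called by limma. The 2 comparisons share their control libraries. Psat1, of serine synthesis, was above control on day 1 (0.10) and below it on day 3 (-0.10), a difference of -0.21 on the log2 scale (adjusted p = 2.32e-05). Its day 1 call was lost without rescaling (0.0559) and with quantile normalization (0.649), and its day 3 call without the 2 libraries with the most Rn45s reads (0.0790). The cystine importer gene Slc7a11 was below control on day 1 (-0.41) and above it on day 3 (0.45), a difference of 0.86 (adjusted p = 1.18e-05). Aldh1l2, of mitochondrial folate metabolism, was above control on day 1 (0.58) and below it on day 3 (-0.21), a difference of -0.79 (adjusted p = 9.89e-07). Its day 3 call was lost without control replicate 1 (0.0666), 2 (0.0715) or 3 (0.0699), with no filter on low values (0.0512) and without the 2 libraries with the most Rn45s reads (0.0839).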

How the results depend on the processing

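The number of members called on day 1 and in the fall from day 1 to day 3 stayed within 1.5 times of the reported counts under the 19 planned settings and the 1 chosen after seeing the data, and no member value called in either setting changed sign. In 23 values that were called in neither setting the sign did change. Of 1953 member values under these settings, 1860 stayed on the same side of the threshold, 67 lost a call and 26 gained one. Of the 8 members called higher on day 3, 5 were called without rescaling, 5 with only the 6 libraries compared and 3 at an adjusted p under 0.01. The 1 member called lower on day 3 became 2 with a mean of at least 5 FPKM, with quantile normalization, with only the 6 libraries compared, with the replicate block and with limma-voom, and 0 at an adjusted p under 0.01 and without the 2 libraries with the most Rn45s reads. The 4 members called higher from day 1 to day 3 became 2 at an adjusted p under 0.01. Over all genes, the 929 called higher and 813 called lower on day 3 became 411 and 340 at an adjusted p under 0.01. The cause of these differences was not tested.

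With each library left out in turn, 3 to 7 members were called higher on day 3 and 1 to 2 lower, 23 to 25 higher and 2 to 3 lower on day 1, and 3 to 5 higher and 22 to 24 lower from day 1 to day 3. Over all genes, 3617 to 3930 were called higher and 3603 to 3906 lower on day 1. From day 1 to day 3, 3131 to 3495 of all genes were called higher and 3256 to 3550 lower. On day 3 against control, 534 to 922 of all genes were called higher and 468 to 859 lower. The low counts came without day 3 replicate 3 (534 higher, 497 lower), day 3 replicate 1 (573 higher, 468 lower), control replicate 3 (525 lower) and control replicate 2 (537 lower). A mean over fewer libraries also brought Fgf21 into the test in some of these fits.

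The replicate numbers did not pair the libraries. Deviations of libraries with the same number had correlations of -0.079 to 0.111, and 4 of the 9 libraries correlated best with their own number. With the replicate block, 24 members were called higher and 3 lower on day 1, 8 higher and 2 lower on day 3, and 4 higher and 23 lower from day 1 to day 3. The block added calls for Phgdh, lower on day 3 (adjusted p = 0.0390), and for the fall of Mthfd1l between the days (adjusted p = 0.0335). Depth limited Fgf21 most, with 3 to 69 reads in a library.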
